A study of Bos grunniens and Bos grunniens x Bos taurus with 2 samples.

Results

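*PECAM1*, *VWF*, *CD34*, *CA4*, *EMCN*, *PALMD* and *ESM1* are genes by which blood endothelial cells (ECs) are commonly recognised. These 7 genes were taken by symbol from the 26961 genes of the yak annotation, in which each symbol belonged to 1 gene. Their unique molecular identifiers (UMIs, each standing for 1 captured RNA molecule) were followed through every cell class of 2 testis libraries. The first library came from testicular tissue of 1 sexually mature male yak (*Bos grunniens*). The second came from 1 sexually mature cattle-yak, the hybrid of *Bos grunniens* and *Bos taurus*. Both tissues had been frozen, thawed, digested with collagenase, hyaluronidase and trypsin, filtered and returned to culture medium before capture. No treatment is given for either animal. With 1 animal behind each library, cross, animal and library cannot be told apart, and no significance test was made. All intervals below are 95% intervals that cover counting error only.

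ECs line blood and lymphatic vessels. PECAM1 holds neighbouring ECs together at their junctions and also occurs on leukocytes and platelets, while VWF is a clotting protein that ECs store and release. CD34 and EMCN are sialomucins of the cell surface, CA4 is a carbonic anhydrase anchored on the capillary wall, PALMD belongs to the paralemmin family, and ESM1 (endocan) is a proteoglycan secreted by activated ECs and by the tip cells that lead a growing vessel. ECs of arteries, veins and capillaries differ in the genes they use, and EMCN is known for venous and capillary vessels rather than arteries.

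From the yak 11991 cells were deposited and from the cattle-yak 8930, in which 60816600 and 43774841 UMIs had been counted (medians 2533 and 3155 per cell). After limits on genes, UMIs and mitochondrial share, 10324 and 7092 cells were kept. A total of 24 barcodes occurred in both libraries, of which 1 belonged to an EC-like cell in each. Mitochondrial genes took 14.2% and 18.9% of the UMIs of kept cells, and 2 rRNA genes another 10.1% and 16.6%. The samples carry a germ cell tag, whereas germ cells made up 14.2% of the kept yak cells and 1.58% of the kept cattle-yak cells. Cells were clustered without the 7 genes and were named from marker lists that hold none of them. The EC-like class comprised 949 yak cells (9.19% of kept cells) and 751 cattle-yak cells (10.6%), with medians of 4404 and 4418 UMIs per cell. Scrublet, a doublet caller, scored every cell but marked no yak cell, so its calling did not work there. It marked 187 cattle-yak cells, and no cell was removed on its account.

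In both libraries most of the 7 genes stood far higher in EC-like cells than in the remaining cells. A log2 ratio of at least 2 between EC-like cells and all other kept cells, on summed counts scaled to the same total (CPM) with 1 CPM added to each side, was reached by 6 of 7 genes in the yak and by 6 of 7 in the cattle-yak. Over all genes with at least 20 counts, 1.73% of 14834 reached it in the yak and 2.42% of 13348 in the cattle-yak. The median log2 ratio of the 7 genes was 2.27 in the yak against -0.23 over all genes, and 2.83 in the cattle-yak against 0.00. A list of 17 other genes used throughout the endothelium, most of which also served to name the class, had medians of 2.38 and 2.56. The list ran in the yak from 0.76 for the transcription factor gene *TAL1* to 3.32 for the receptor phosphatase gene *PTPRB*. The study itself used *VWF*, *CD34* and *PALMD* to name ECs in the yak library, so their direction there is not independent of it. All 7 genes were also chosen with earlier results of these data known. The counts of genes past the limit are thus descriptions in both libraries.

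**Figure D1:**
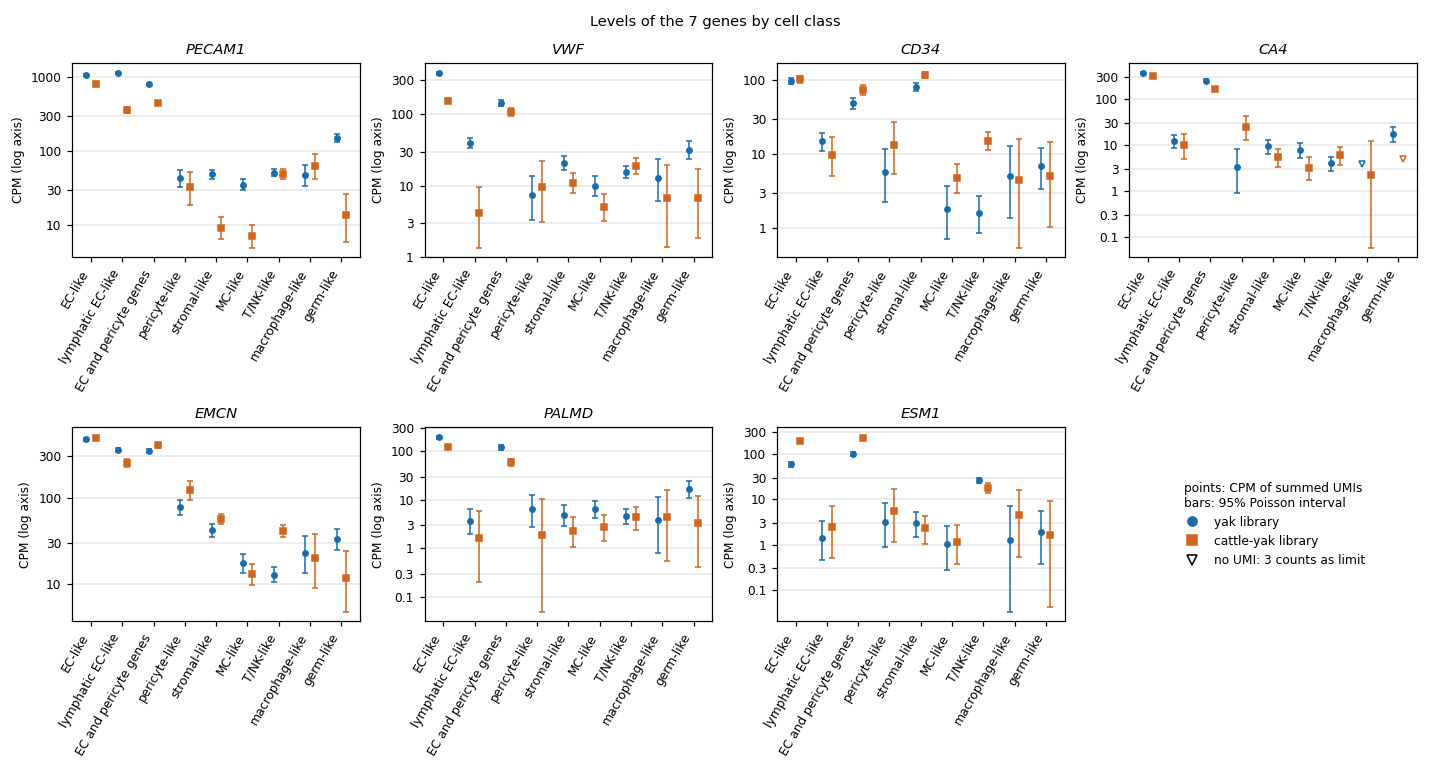
CPM of the 7 genes (log axis) in the cell classes of the yak library (circles) and the cattle-yak library (squares), with 95% Poisson intervals; open triangles mark classes without a UMI at the limit that 3 counts set. *VWF*, *CA4* and *PALMD* were highest in EC-like cells, whereas *PECAM1* and *EMCN* were also high in lymphatic EC-like cells and *CD34* in stromal-like cells.

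*PECAM1* (ENSBGRG00000011037), the junctional adhesion gene, reached 1070.2 CPM (1042 to 1098) in yak EC-like cells and 264 CPM in all other kept cells. In the cattle-yak it reached 822 CPM (794 to 852) against 83.7 CPM. The log2 ratios were 2.01 and 3.28. The other cells include lymphatic EC-like cells and a cluster with both EC and pericyte genes, and without these, a setting chosen after seeing the data, the ratios were 3.83 and 5.46. Leukocytes are known to carry *PECAM1*. T/NK-like cells (T lymphocytes and natural killer cells) stood at 51.1 CPM in the yak and 49.1 CPM in the cattle-yak, and macrophage-like cells at 47.2 and 62.2 CPM. In the yak these overlapped with stromal-like cells at 48.3 CPM and pericyte-like cells at 42.9 CPM, and in the cattle-yak stromal-like cells stood at 9.21 CPM and pericyte-like cells at 32.2 CPM (18.7 to 51.5).

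*VWF* (ENSBGRG00000002102), the clotting gene, stood at 377 CPM (360.4 to 394) in yak EC-like cells against 35.0 CPM in the rest, a log2 ratio of 3.39. In the cattle-yak it stood at 154 CPM (142 to 167) against 20.9 CPM, a ratio of 2.83. Outside EC-like cells and the cluster with EC and pericyte genes, no class of either library named from its markers exceeded 39.9 CPM of *VWF*. *PECAM1* and *VWF* are also genes of platelets. Of the platelet genes *ITGA2B*, *GP1BB* and *TUBB1*, the last 2 had 0 UMIs in EC-like cells of both libraries, and *ITGA2B* stood at 23.1 CPM in the yak and 16.2 CPM in the cattle-yak.

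*CA4* (ENSBGRG00000017567), the capillary carbonic anhydrase gene, and *PALMD* (ENSBGRG00000006265) separated EC-like cells from the rest by log2 ratios above 3 in both libraries. *CA4* reached 374 CPM (358 to 391) against 32.1 CPM in the yak and 323 CPM (305 to 341) against 22.4 CPM in the cattle-yak, with log2 ratios of 3.501 and 3.79. *PALMD* reached 193 CPM (181 to 205) against 18.9 CPM, and 121 CPM (110.4 to 133) against 9.36 CPM, with ratios of 3.28 and 3.56. Pericyte-like cells, which wrap capillaries, had 3.24 CPM of *CA4* in the yak and 24.6 CPM (13.1 to 42.1) in the cattle-yak.

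The surface mucin genes were shared with other cells. *CD34* (ENSBGRG00000024571) stood at 96.3 CPM (88.1 to 105) in yak EC-like cells and at 80.0 CPM (71.1 to 89.7) in stromal-like cells, with overlapping intervals. In the cattle-yak the stromal-like level, 117 CPM (107 to 129), was the highest of 13 classes, and the EC-like level of 102 CPM (92.3 to 113) overlapped with it. The direct log2 ratio of EC-like over stromal-like cells was 0.26 (0.06 to 0.48) in the yak. In the cattle-yak it was -0.20 (-0.40 to -0.004). Within cattle-yak stromal-like cells *CD34* ran from 64.3 CPM in a cluster led by *CHGA* to 177 CPM in a cluster led by *SMOC2*. *CD34* was thus the gene below the limit in the cattle-yak, where its log2 ratio to the other cells was 1.14, against 2.08 in the yak. *EMCN* (ENSBGRG00000002544) stood at 472 CPM (454 to 491) in yak and 491 CPM (469 to 513) in cattle-yak EC-like cells, with log2 ratios of 2.27 and 2.32. Its level in pericyte-like cells was 76.9 CPM in the yak and 123 CPM in the cattle-yak, and in stromal-like cells 41.8 and 57.05 CPM.

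*ESM1* (ENSBGRG00000021214), the endocan gene, rested on 313 counts in yak EC-like cells, at 59.2 CPM (52.8 to 66.1). It was below the limit there, with a log2 ratio of 1.66 to the other cells, and reached 193 CPM (179 to 207) and a ratio of 2.65 in the cattle-yak. Lymphocytes carried part of the *ESM1* outside ECs. T/NK-like cells stood at 26.2 CPM (22.8 to 30.0) in the yak and 18.1 CPM (13.9 to 23.1) in the cattle-yak. Stromal-like cells stood at 3.00 and 2.30 CPM, and MC-like cells at 1.03 and 1.14 CPM. The MC-like class was named from contractile genes such as *MYH11*, and the pericyte-like markers *NOTCH3* and *MCAM* were also enriched in it. Whether its cells are myoid cells is thus not settled. Among yak T/NK-like clusters *ESM1* ran from 10.6 CPM in a cluster led by *IL7R* to 61.4 CPM in a cluster of 77 cells. After every cell was thinned to 1000 UMIs, 2.40% of 3494 yak T/NK-like cells had a UMI of *ESM1* against 0.12% of 835 stromal-like cells, at median depths of 1947 and 3986 UMIs. Without thinning the T/NK-like share was 5.13%.

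Single EC-like cells held few UMIs of each gene. After thinning, which left out 51 yak and 30 cattle-yak EC-like cells, *PECAM1* was found in 53.9% of 898 yak cells and 42.4% of 721 cattle-yak cells. The shares were 33.9% and 36.1% for *EMCN*, 25.7% and 9.15% for *VWF*, 22.9% and 17.1% for *CA4*, 15.6% and 12.5% for *PALMD*, 9.69% and 9.02% for *CD34*, and 4.45% and 13.04% for *ESM1*. Without thinning the *PECAM1* share was 82.4% in the yak. T/NK-like cells, which should lack most of these genes, had shares between 0.172% for *CD34* and 4.75% for *PECAM1* in the yak and between 0.248% for *CA4* and 2.73% for *PECAM1* in the cattle-yak. How much of these is free RNA was not tested, and *PECAM1* is known in leukocytes. At least 1 of the 7 genes was found in 88.6% of thinned EC-like cells of the yak (86.4% to 90.6%) and in 82.1% of those of the cattle-yak (79.1% to 84.8%), against 10.2% and 7.70% of T/NK-like cells. At least 2 of them were found in 52.6% and 41.1% of EC-like cells and in 0.37% and 1.32% of T/NK-like cells. The cattle-yak T/NK-like value came mostly from 1 cluster, whose 123 thinned cells held 11 of the 16 such cells. The 7 genes together stood at 431 CPM in that cluster and between 63.3 and 133 CPM in the other T/NK-like clusters of the library. The pooled cattle-yak T/NK-like levels given above include this cluster, and the part of doublets in it was not tested.

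Lymphatic EC-like cells, named from genes such as *PROX1*, *FLT4* and *CCL21*, kept *PECAM1* and *EMCN* and had little of the other 5 genes. In the 724 yak cells *PECAM1* stood at 1147 CPM (1112 to 1183), a log2 difference of -0.10 for EC-like over lymphatic EC-like cells, and *EMCN* at 352 CPM (333 to 373), a difference of 0.42. The other 5 genes were higher in EC-like cells by log2 ratios of 2.62 for *CD34*, 3.21 for *VWF*, 4.63 for *ESM1*, 4.85 for *CA4* and 5.36 for *PALMD*. In the 310 cattle-yak lymphatic cells *PECAM1* stood at 357 CPM (324 to 392) and *EMCN* at 249.7 CPM (222 to 279), with log2 ratios of 1.20 and 0.97 for EC-like over lymphatic cells. The other 5 ratios were between 3.26 for *CD34* and 5.81 for *ESM1*. *PALMD* and *ESM1* rested in lymphatic cells on 13 and 5 counts in the yak and on 2 and 3 counts in the cattle-yak, so their ratios are imprecise.

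A cluster of each library carried markers of both ECs and pericytes and received no name. In the yak it held 319 cells with 9 EC-like and 5 pericyte-like markers enriched and a median of 10076 UMIs, and in the cattle-yak 256 cells with 11 and 5 markers and a median of 10020.5 UMIs. All 7 genes were present there. *ESM1* had its highest level of any class in these clusters, at 99.8 CPM (88.6 to 112) in the yak and 230.3 CPM (212 to 250.0) in the cattle-yak. The median Scrublet score lay at percentile 71.5 of the kept cells in the yak cluster and at percentile 64.2 in the cattle-yak cluster. The part of doublets in these values was not tested. Another unnamed yak cluster, of 580 cells with a median of 998 UMIs, had 400.5 CPM of *PECAM1* and 134 CPM of *VWF*. *RGS5* and *CAVIN1* were among its leading genes, but no marker of any list was enriched and its largest log2 ratio was 0.90. Its cell type is thus not known. Its median Scrublet score lay at percentile 85.3 of the kept yak cells.

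Within EC-like cells *PECAM1*, *CA4*, *ESM1* and *VWF* differed between arterial-like cells and the rest in both libraries. EC-like cells were clustered again, and sub-clusters rich in *BMX*, a cytoplasmic tyrosine kinase gene of arterial endothelium, were compared with the rest. They held 204 yak cells (21.5% of EC-like cells) and 162 cattle-yak cells (21.6%), and the other genes of the arterial list, among them *GJA4* and *CXCL12*, were all higher in them by a log2 ratio of at least 1 in both libraries. These other genes could enter the clustering, and *BMX* chose the sub-clusters. *PECAM1* was higher in *BMX*-rich cells, at 2129 CPM (2050 to 2211) against 737 CPM in other EC-like cells of the yak and 2024 CPM (1931 to 2119) against 460.3 CPM in the cattle-yak. The log2 ratios were 1.53 and 2.13. *CA4* and *ESM1* were low there. *CA4* stood at 30.0 against 482 CPM in the yak and at 11.3 against 416 CPM in the cattle-yak, with log2 ratios of -3.96 and -5.09. *ESM1* stood at 3.16 CPM, from 4 counts, against 76.9 CPM, and at 9.02 CPM, from 8 counts, against 248 CPM, with ratios of -4.23 and -4.64. *VWF*, the clotting gene, went the same way, with 85.3 against 469 CPM in the yak and 30.4 against 192 CPM in the cattle-yak, and ratios of -2.44 and -2.62.

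The mucin genes lay just short of the limit of 1 in *BMX*-rich cells. The log2 ratios of *CD34* were -0.95 in the yak and -0.96 in the cattle-yak, and those of *EMCN* were -0.98 and -0.75. *PALMD* differed between the libraries. It stood at 193 and 192 CPM in *BMX*-rich and other EC-like cells of the yak, a log2 ratio of 0.01 (-0.20 to 0.22), and at 231 and 88.0 CPM in the cattle-yak, a ratio of 1.38 (1.12 to 1.66). In all, 1 of 7 genes was higher and 3 lower by a log2 ratio of at least 1 in *BMX*-rich yak cells, where 6.22% and 5.79% of 8811 genes were. In the cattle-yak 2 were higher and 3 lower, where 6.66% and 7.16% of 8033 genes were. The median of the 7 genes was -0.98 and -0.96, against 0.11 and 0.10 over all genes. The 16 pan-endothelial genes tested split into 2 higher and 2 lower in the yak and 3 higher and 2 lower in the cattle-yak, with *CLDN5*, a tight junction gene, the highest in both at 1.26 and 1.59.

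**Figure D2:**
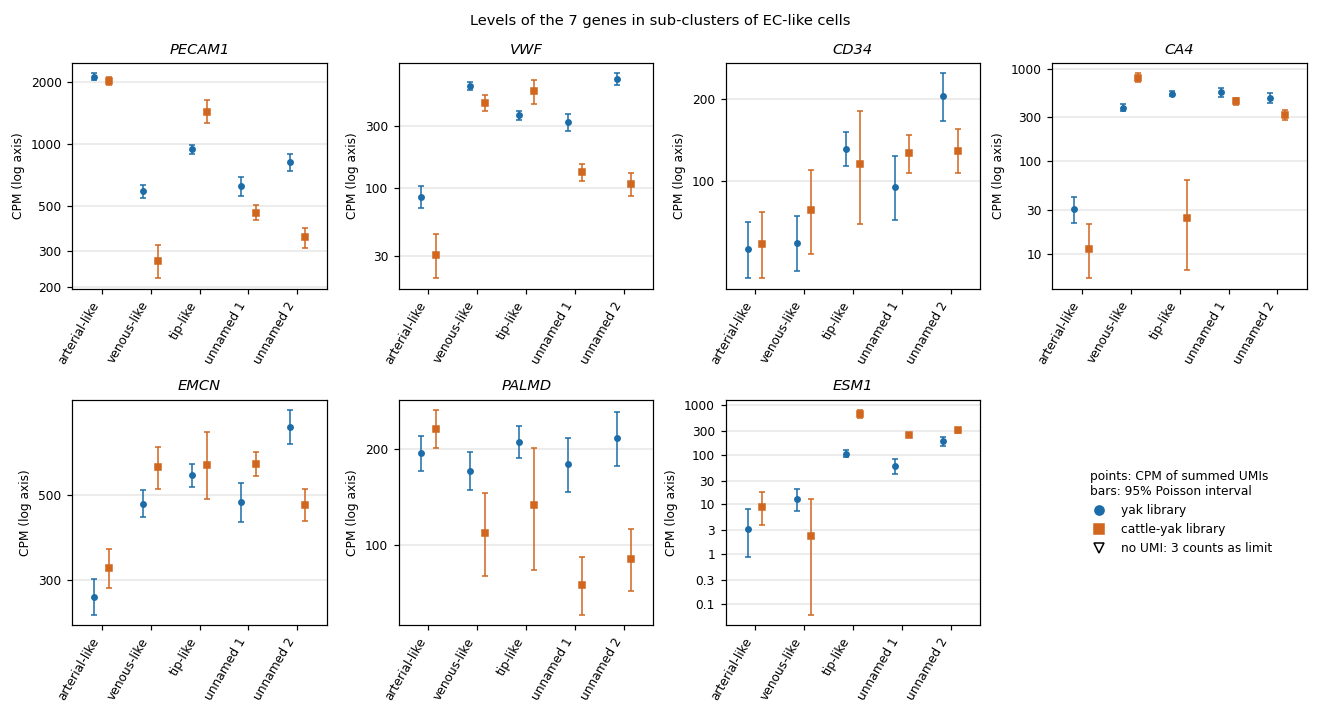
CPM of the 7 genes (log axis) in sub-clusters of EC-like cells, yak as circles and cattle-yak as squares, with 95% Poisson intervals; the unnamed sub-clusters are each library's own and do not match between libraries, and the small sub-clusters with T/NK-like or stromal-like markers are not drawn. Arterial-like cells had the highest *PECAM1* and the lowest *VWF*, *CD34* and *EMCN* in both libraries, and *CA4* was low in the arterial-like sub-clusters and in the cattle-yak tip-like sub-cluster.

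Some of the 745 yak and 589 cattle-yak other EC-like cells fell into sub-clusters with venous or tip cell markers, and the rest fell into unnamed sub-clusters. At the main settings no sub-cluster of either library was named for capillary genes. The venous-like sub-clusters, 153 yak and 65 cattle-yak cells with *SELP*, *ACKR1* and *ADGRG6* enriched, were led by *IL6* and *CXCL9* in the yak and by *CXCL9* and *SELP* in the cattle-yak. They had low *PECAM1*, 587 CPM in the yak and 268 CPM in the cattle-yak, with *VWF* at 612 and 455 CPM and *CA4* at 381 and 803 CPM. The *CA4* level of 803 CPM was the highest of any cattle-yak sub-cluster. *ESM1* was low in the venous-like sub-clusters, at 12.8 CPM in the yak and 2.37 CPM in the cattle-yak, the latter from 1 count. The tip-like sub-clusters, with *ANGPT2*, *ADM* and *LAMA4* enriched beside the capillary genes *RGCC* and *KIT*, held 183 yak and 42 cattle-yak cells. *ESM1* reached 105 CPM in those of the yak and 665 CPM in those of the cattle-yak, the highest level of any cattle-yak sub-cluster. *CA4* stood at 539 CPM in yak tip-like cells and at 24.2 CPM in cattle-yak tip-like cells, from 4 counts. In the yak, *ESM1* was highest in an unnamed sub-cluster of 176 cells with *CCN2* and *COL12A1* among its leading genes, at 188 CPM.

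The spread of each gene over the sub-clusters of a library followed from these levels. From the lowest to the highest sub-cluster, *PALMD* differed 1.27-fold in the yak and 3.10-fold in the cattle-yak, *EMCN* 2.78-fold and 1.87-fold, and *CD34* 3.64-fold and 2.20-fold. *CA4* differed 18.6-fold and 71.3-fold, and *ESM1* 59.4-fold and 281-fold, with 1 to 4 counts in the lowest sub-cluster of *ESM1*. A small sub-cluster in each library stood apart. In the yak, 35 cells had 5 enriched T/NK-like markers, and in the cattle-yak 34 cells had 4 enriched stromal-like markers. Their median Scrublet scores lay at percentiles 96.4 and 98.7 of the kept cells of their libraries. The tip-like name was not given in either library with 3000 variable genes or at a Leiden resolution of 2 in the clustering of all cells. It was also not given in the yak at a resolution of 0.5 in that clustering, nor in the cattle-yak without quality limits. An arterial-like sub-cluster was found under every setting. The resolution of 0.5 that makes the sub-clusters themselves was not varied.

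Between the libraries, *ESM1* was higher and *VWF* lower in cattle-yak EC-like cells. The log2 ratio of cattle-yak over yak was 1.69 (1.51 to 1.90) for *ESM1* and -1.28 (-1.42 to -1.15) for *VWF*, and these were the only 2 of the 7 genes with a ratio of at least 1 in size. Of 10047 genes, 3.5% were higher and 4.55% lower by that much. *PALMD* was at -0.66 (-0.83 to -0.51), *PECAM1* at -0.38, *CA4* at -0.21, *CD34* at 0.08 and *EMCN* at 0.06. The median of the 7 genes was -0.21, that of all genes -0.08, and none of the 17 pan-endothelial genes reached a ratio of 1 in size. Of the vessel type lists, 0 of 9 arterial genes passed that size. Among 8 venous genes 2 were lower and 0 higher (median -0.10), with the receptor gene *ACKR1* at -2.38. Among 5 tip genes 1 was lower, *ANGPT2* at -1.93 (median -0.31), and among 6 capillary genes 2 were higher (median 0.44), the lipid transporter gene *MFSD2A* at 2.37 and the fatty acid receptor gene *CD36* at 1.89.

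For *PECAM1*, *PALMD* and *CA4* the difference between the libraries was not the same in *BMX*-rich and other EC-like cells, with counting intervals that did not overlap. Other EC-like cells are a mixture of sub-clusters, which were named within each library. Cells named tip-like were 183 of 745 in the yak and 42 of 589 in the cattle-yak, and cells named venous-like 153 and 65. The tip-like name depended on the settings, so these numbers may not count the same kind of cell in both libraries. The part of the make-up of this mixture in the ratios was not tested. In *BMX*-rich cells *PECAM1* was at -0.07 (-0.16 to 0.01) and *PALMD* at 0.26 (-0.02 to 0.53). In other EC-like cells *PECAM1* was at -0.68 (-0.77 to -0.59) and *PALMD* at -1.12 (-1.34 to -0.92). *CA4* was at -1.34 (-2.58 to -0.38) in *BMX*-rich cells, from 10 cattle-yak and 38 yak counts. It was at -0.21 (-0.32 to -0.11) in other EC-like cells. *VWF* was lower in the cattle-yak in both *BMX*-rich and other EC-like cells, at -1.46 and -1.28, and *ESM1* higher by 1.68 in other EC-like cells. In lymphatic EC-like cells *PECAM1* and *VWF* were lower in the cattle-yak by larger ratios, -1.68 (-1.83 to -1.54) and -3.01 (-4.93 to -2.03), the latter from 5 counts in the cattle-yak. The mitochondrial and rRNA shares given above also differed between the libraries, and with both left out of the total the EC-like ratios were 1.84 for *ESM1* and -1.13 for *VWF*. In all cells outside the EC-like class, the ratios were -1.65 for *PECAM1*, -0.94 for *PALMD*, -0.72 for *VWF* and -0.50 for *CA4*. *EMCN* was at 0.01 there, *ESM1* at 0.70 and *CD34* at 1.03. In stromal-like and T/NK-like cells *VWF* was at -0.86 and 0.26, and *ESM1* at -0.28 and -0.51. How much of the EC-like differences is shared with other cells was not tested.

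**Figure D3:**
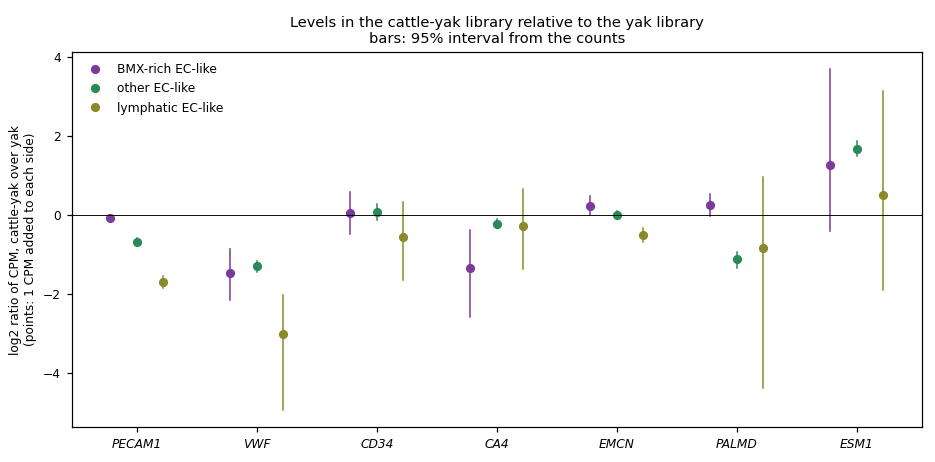
Log2 ratio of cattle-yak over yak CPM for the 7 genes in *BMX*-rich EC-like, other EC-like and lymphatic EC-like cells, with points after adding 1 CPM to each side and bars for the 95% interval of the plain ratio. *VWF* was below 0 in all 3 groups, *CD34* and *EMCN* lay within 0.25 of 0 in both blood EC groups, and *PECAM1* lay near 0 in *BMX*-rich cells and lower in the other groups.

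Germ cells were part of the planned comparison. *PECAM1* was highest of 18 yak groups in cells that the study typed as spermatogonial stem cells (SSCs). These types were themselves assigned by gene expression in this library, and the values below are descriptions of them. The 84 SSC cells held 181 UMIs of *PECAM1*, or 1182 CPM (1016 to 1368), which overlapped with lymphatic EC-like cells and lay below *BMX*-rich EC-like cells by a log2 ratio of -0.85 (-1.07 to -0.63). A UMI of *PECAM1* was counted in 69 of the 84 cells (82.1%), with a median of 1 and at most 12 per cell. Spermatogonia (SPG) had 160.0 CPM (130.0 to 195), late spermatocytes (late-SPC) 143 CPM, spermatids (SPT) 121 CPM and early spermatocytes (early-SPC) 14.05 CPM. Among these the intervals of SPG, late-SPC and SPT overlapped.

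Of the other 6 genes, *VWF* was also higher in SSC than in SPG. It stood at 144 CPM (90.1 to 218) against 35.6 CPM, from 22 counts in each, and its log2 ratio of 1.99 (1.09 to 2.94) followed that of 2.88 (2.52 to 3.25) for *PECAM1*. *CD34* with 7 and 16 counts and *EMCN* with 12 and 44 had ratios of 0.80 and 0.14, with intervals that included 0. *PALMD* had 8 and 10 counts and a ratio of 1.63 (0.15 to 3.19). *CA4* had 2 and 11 counts, and *ESM1* 1 and 2. Thus 4 of the 7 genes had the 20 counts needed, of which 2 were higher in SSC and 0 lower, where 7.53% of 5035 genes were higher and 23.3% lower by a log2 ratio of at least 1. Of the 11 pan-endothelial genes with enough counts, 8 were higher in SSC, with a median of 1.51 against -0.33 over all genes, and 3 of 5 arterial genes were higher. *BMX* had 28 counts in SSC, 183 CPM, and 14.5 CPM in SPG. The study presents *BMX* as an SSC marker and reports antibody staining of its protein in SSCs of the tubules, which RNA counts do not test.

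The *PECAM1* share of the 7 genes in SSC was near that of *BMX*-rich EC-like cells, whereas the *VWF* and *EMCN* shares differed. A high *PECAM1* share was not particular to *BMX*-rich cells. In yak lymphatic EC-like cells, *PECAM1* made up 4026 of the 5515 UMIs of the 7 genes. *PECAM1* made up 77.7% (71.8% to 82.9%) of the UMIs of the 7 genes in SSC and 76.9% (75.5% to 78.3%) in *BMX*-rich EC-like cells, against 28.3% in other EC-like cells and 47.6% in all kept cells. *VWF* made up 9.44% in SSC and 3.08% in *BMX*-rich cells, and *EMCN* 5.15% and 9.79%. Against *BMX*-rich cells the log2 ratio of SSC was 0.75 (0.02 to 1.42) for *VWF* and -1.78 (-2.76 to -0.97) for *EMCN*. In SPG the *PECAM1* share was 48.5% (41.5% to 55.6%). The germ cell gene *UCHL1* was also present in SSC, at 281 CPM (203 to 378) against 1028 CPM in SPG, 13.4 CPM in *BMX*-rich and 10.2 CPM in other EC-like cells. Of the 84 SSC cells, 31 had a UMI of *UCHL1* and 27 a UMI of both *UCHL1* and *PECAM1*. By clustering, 9 of the 84 fell into the unnamed cluster with *RGS5* and *CAVIN1*, which had no enriched marker. A further 68 fell into a germ-like cluster led by *UCHL1*, 6 into the EC-like cluster and 1 into the lymphatic cluster. In the 98 cells of the same germ-like cluster that the study's table does not type, the 7 genes together stood at 1078 CPM. *PECAM1* stood at 781 CPM (672 to 904) there, at a median of 907 UMIs. The other 3 yak germ-like clusters had between 10.5 and 187 CPM of *PECAM1*, and germ-like cells of the cattle-yak 13.4 CPM (5.80 to 26.5). The part of free RNA and of doublets in these values was not tested.

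**Figure D4:**
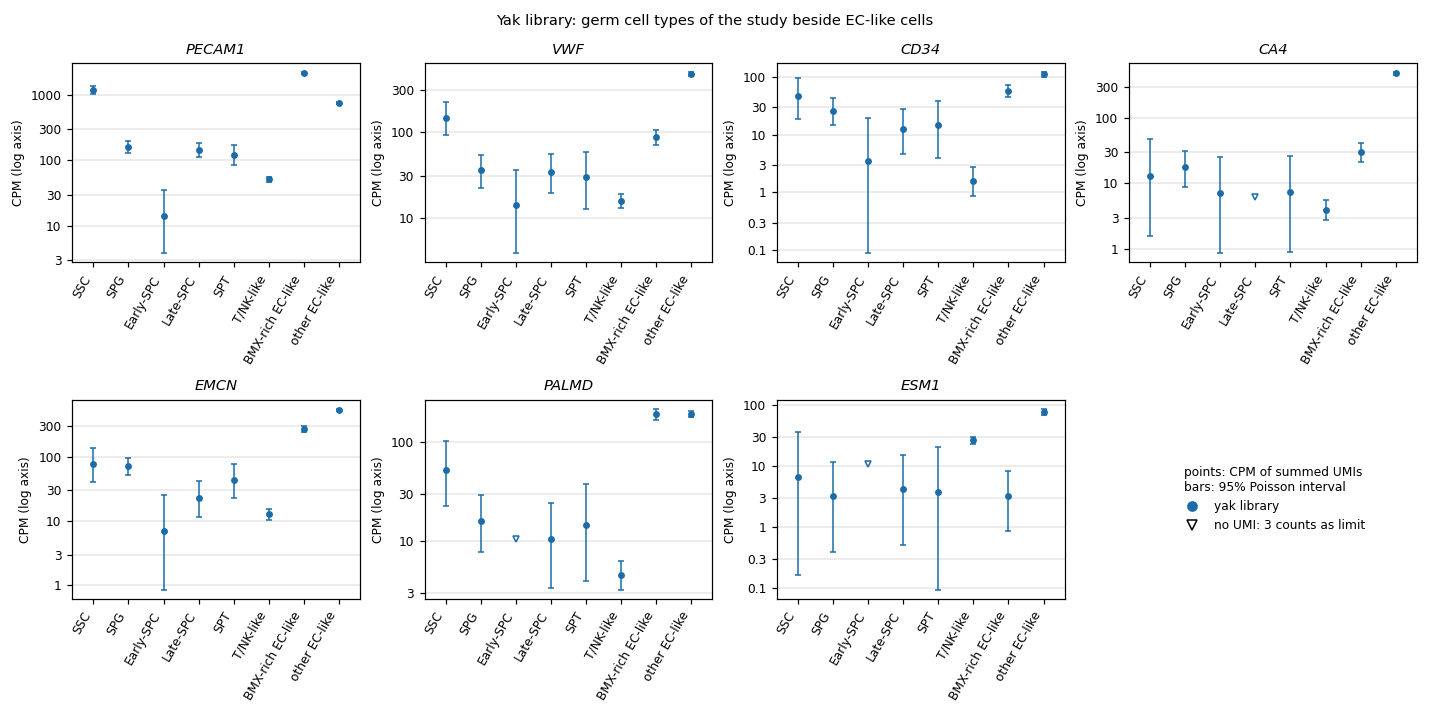
CPM of the 7 genes (log axis) in the germ cell types of the study, T/NK-like cells, *BMX*-rich and other EC-like cells of the yak library, with 95% Poisson intervals and open triangles for types without a UMI. SSC stood between *BMX*-rich and other EC-like cells for *PECAM1*, above the other germ cell types for *VWF*, and below both EC-like groups for *EMCN* and *PALMD*.

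Across the 31 groups with at least 50 cells, from both libraries together, all pairs of the 7 genes correlated positively, and the lowest values were of *CD34*. The Pearson correlation of log2(CPM + 1) between them ran from 0.27 for *PECAM1* with *CD34* to 0.78 for *VWF* with *CA4*. Among pairs without *CD34* the lowest was 0.59, for *VWF* with *EMCN*. Groups of 1 library share its depth and free RNA, so these values are descriptions. Among 12289 genes, the levels most like *PECAM1* were those of the junction genes *CLDN5* (0.95) and *CDH5* (0.93) and of the transcription factor gene *ERG* (0.92). *VWF* was most like *PTPRB* (0.87), *MMRN2* and *IRX3*, and *PALMD* most like *JAM2* (0.89), *ADGRG1* and *MMRN2*. *CA4* was most like *FST* (0.87), *AVPR2* and *DACH1*, and *CD34* most like *RAMP2* (0.86), a co-receptor gene of adrenomedullin signalling. For *EMCN* and *ESM1* the leading gene had no symbol, and the named genes among their first 3 were *TCF4* (0.91) and *LEPR* (0.84).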

How the data were processed

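The authors deposited, for each of 2 libraries of the 10x Genomics platform, whole-number UMI counts per gene and cell barcode without normalization. The matrix headers name Cell Ranger 5.0.0, the submitters' notes 2.1.1 and the methods of the study another version. Reads were mapped to the yak genome BosGru3.0, and an alignment setting for the hybrid is not given in the sources used here. The cattle-yak library is not described in the paper. The members and lists were chosen with earlier results of these data known.

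Cells were kept if their gene and UMI numbers lay no more than 2 standard deviations from the mean and their mitochondrial share below 30%, and each library was clustered alone with scanpy 1.11.5 and igraph 0.11.9 (Leiden, resolution 1, 2000 variable genes, 30 components, 15 neighbours, seed 0). The 7 genes and the genes the study names were left out of the clustering genes. A class name needed 3 markers with a log2 ratio of at least 1 and a UMI in 10% of cells. A cluster led by *WFDC2* met the rule for Sertoli cells and was left unnamed, since its leading genes go against it, a choice made after the clusters had been seen. EC-like cells were clustered again on 20 components at a resolution of 0.5, and *BMX*-rich sub-clusters were those past the same limits for *BMX*. Germ cell types were taken from the study's table of barcodes, and cells typed there were left out of the classes.

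Counts were summed and scaled to CPM with exact Poisson intervals. Log2 ratios had 1 CPM added, and their exact conditional intervals are of the plain ratio. Genes with at least 20 counts over both sides entered the counts by size. Shares of cells have exact binomial intervals after thinning to 1000 UMIs. No p-value is given, since cells are not replicates. Genes named were the 7 genes, the genes of the endothelial and platelet lists, the 3 genes most like each member by Pearson correlation among genes with at least 100 counts, and the 3 leading genes of each EC-like sub-cluster, given a minimum of 50 counts and detection in 20% of its cells. Genes that lead other clusters and *UCHL1* were named after their values had been seen. Not every gene of the lists is reported here. The log2 ratio and interval steps were tested on simulated Poisson counts with 200 changed genes. Clustering, class names, thinning and correlations were not tested in this way. Python 3.11.15, numpy 2.4.6, scipy 1.17.1, pandas 2.3.3, scikit-learn 1.9.0 and matplotlib 3.10.9 were used. Alternatives changed the quality limits, doublets, variable genes, denominator, cell weights, pseudocount, fold limit, count minimum and thinning depth. They also changed the resolution of the clustering of all cells, but not that of the sub-clusters.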

Additional observations from a re-analysis of the deposited data

How the results depend on the processing

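The 6 counts of members past the fold limit stayed within 1.5 times the reported count under all 65 alternatives. That bound is wide for so few genes, since it lets a count of 6 of 7 fall to 4. Of the other values followed under the alternatives, 124 were marked as moved and 373 as the same. In yak EC-like cells against the rest, 4 genes passed with a mitochondrial limit of 20%, where *PECAM1* and *CD34* were at 1.97 and 1.99, and 4 with 5 CPM added, where they were at 1.998 and 1.91. All 7 passed with every cell weighted equally, with the lower fold limit and with the reference without lymphatic and mixed cells. No called log2 ratio changed its sign. Signs changed only for ratios near 0, those of *CD34* and *EMCN* between libraries, of *EMCN* in SSC and of *PALMD* in yak *BMX*-rich cells. Without quality limits, the ratio of *VWF* in *BMX*-rich yak cells was -1.42 in place of -2.44. The reference without lymphatic and mixed cells, chosen after seeing the data, moved the EC-like ratio of *ESM1* in the cattle-yak from 2.65 to 5.03 and that of *CA4* from 3.79 to 5.90. With no minimum of counts, 3 members were higher in SSC in place of 2. Changes of clustering left SSC and SPG as they were and give no value for them. No paired analysis was possible because each group has 1 library. Depth limits *CA4*, *ESM1* and *PALMD* in SSC, with 1 to 8 counts each, and *ESM1* in *BMX*-rich cells.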

Other observations

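The venous, capillary and tip lists were also compared within EC-like cells, with no test of a difference between the libraries. Genes of these lists could enter the clustering that made the sub-clusters, so the counts are descriptions. Over all genes, 5.79% of 8811 were lower and 6.22% higher by the same limit in the yak. In the cattle-yak 7.16% of 8033 were lower and 6.66% higher. In *BMX*-rich against other EC-like cells, 5 of 7 venous genes tested were lower and 1 higher by a log2 ratio of at least 1 in the yak, and 6 of 8 lower and 1 higher in the cattle-yak. *SELP*, an adhesion receptor gene of venous endothelium, stood at 2.37 against 57.2 CPM in the yak, and had 0 against 131 counts in the cattle-yak. Of the capillary genes tested, 3 of 4 were lower and 1 higher in each library. The higher one was *CD36*, at 11.8 against 1.24 CPM in the yak and 42.8 against 8.84 CPM in the cattle-yak. Of 5 tip genes tested, 3 were lower in the yak (median log2 ratio -1.52) and 2 in the cattle-yak (median -0.89), and 0 were higher in either.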
